A study of Populus tomentosa with 15 samples.

Results

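Suspension cells of *Populus tomentosa* that overexpress *PtomtAPX*, a mitochondrial ascorbate peroxidase gene (*OX*, written PtomitAPX in the sample labels), were compared with untreated wild type (WT) cells by RNA-seq. The comparison used 6 of the 15 libraries of the series, 3 of *OX* and 3 of WT. Levels are FPKM, the reads of a gene scaled by gene length and by the reads of the library. Of 42635 features, 23281 reached 1 FPKM or more in 3 or more of these libraries and were tested. Both cell types were grown in shaken liquid culture in the dark and collected 5 days after subculture. *OX* cells carry the full-length cDNA behind the 35S promoter, which is active in most plant cells. The *OX* lines required the added cytokinin 6-BA (benzyladenine) to grow in MS medium. Whether WT cells received it is not given in the sources used here, so the transgene and the added cytokinin cannot be told apart. Whether the 3 *OX* libraries come from 1 clone, and whether the 3 libraries of a group come from separate cultures, is not given either, and p-values measure only the spread between these libraries. The *OX* libraries were also set against 3 libraries of *OX*-H (*OX* cells given 10 mM H2O2 for 3 h) and 3 of *anti-3* (an untreated *PtomtAPX*-antisense line). The series holds no WT cells given H2O2, so a return toward the WT and a general response to H2O2 cannot be told apart. The identifiers of the table are not paired with *PtomtAPX* or with marker genes of cell types, so neither the transgene nor the cell type was checked.

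Ascorbate peroxidase uses ascorbate to reduce H2O2 to water. In mitochondria, H2O2 arises from superoxide formed when electrons leave the respiratory chain early, and it acts both as a damaging oxidant and as a signal. Plant mitochondria also hold an alternative oxidase, which passes electrons from ubiquinol to oxygen without pumping protons and is a common readout of altered respiration.

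The 6 libraries held 17509951 to 21278437 reads each, worked back from the steps of 1 read in the FPKM values, and between 29288 and 30502 features above 0. Across the tested genes, Pearson correlations of log2(FPKM + 1) were 0.992 or more within a group and 0.829 to 0.845 between an *OX* and a WT library. Replicate libraries differed by more than the sampling noise (chi-square per degree of freedom 3.28 to 6.07), so none was counted as a copy of another.

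Compared to the WT, 2847 genes were differentially expressed (DEGs) in *OX*, of which 1605 were raised and 1242 lowered. A DEG had an adjusted p below 0.001 from limma with Benjamini-Hochberg adjustment and an absolute log2 fold change above 1.5, on log2(FPKM + 1). On this scale, changes of genes with low FPKM come out too small. Raised DEGs were 6.89%, lowered DEGs 5.33% and all DEGs 12.2% of the tested genes. Over all tested genes the log2 fold change had a median of -0.19, or -0.05 with the library medians aligned. The raised share of the DEGs was 56.4%, and 66.9% of 2881 DEGs after that alignment. It was 50.9% with a pseudocount of 0.1 and 50.01% with voom, and with a fold change above 1.5 in place of the log2 threshold it was 41.5% of 11205 DEGs, so that lowered genes were then the majority. All 2847 DEGs had *OX* and WT libraries that did not overlap, but so did 81.5% of the tested genes, so the absence of overlap alone marks no gene.

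The levels of the DEGs are given as a description, since a gene called raised is low in the WT, and a gene called lowered high there, in part because of how it was called. The median FPKM of the raised DEGs was 4.68 in WT and 30.9 in *OX*, and that of the lowered DEGs was 20.7 in WT and 3.98 in *OX*. Raised DEGs took 2.96% to 3.09% of the reads of the WT libraries and 19.2% to 20.7% of those of the *OX* libraries, while the share of the lowered DEGs was 11.8% to 12% in WT and 2.55% to 2.78% in *OX*. The libraries of a group therefore differed little in these shares.

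**Figure D1:**
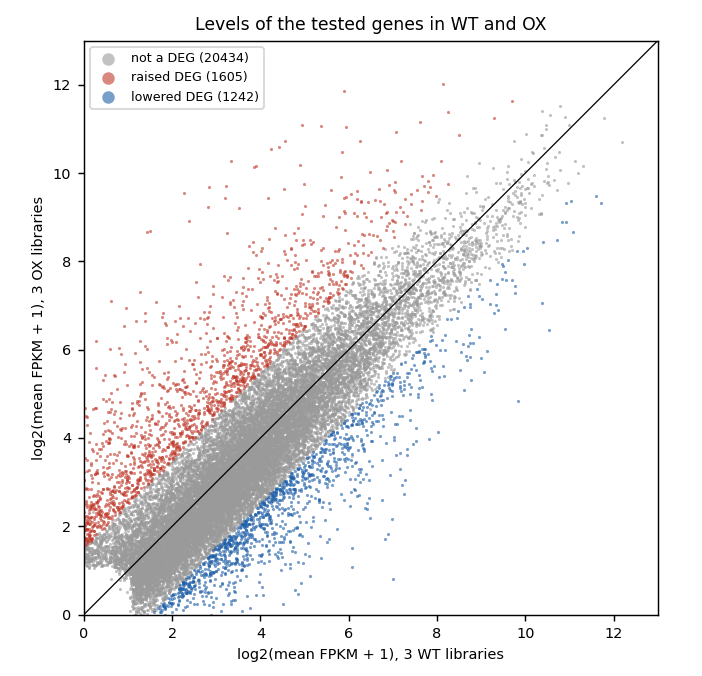
Mean FPKM of each of the 23281 tested genes in the 3 WT libraries (x axis) and the 3 *OX* libraries (y axis), both as log2(mean FPKM + 1), with the 1605 raised DEGs in red, the 1242 lowered DEGs in blue and the line of equal levels in black. Raised DEGs extend to the left edge of WT levels, and lowered DEGs to the lower edge of *OX* levels.

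The largest rises on this scale were those of POPTR_0013s01580 and POPTR_1310s00210, with log2 fold changes of 7.29 and 7.27, and the largest falls those of POPTR_0014s04770 and POPTR_0009s03410, with -6.18 and -5.17. POPTR_0014s04770 was at 122, 127 and 131 FPKM in the WT libraries and at 0.966, 0.761 and 0.551 in *OX*, where it rested on 16 reads in all. Its mean was 102 FPKM in *anti-3*, a log2 difference (*OX* minus *anti-3*) of -5.88 (adjusted p = 2e-13, limma). None of these 4 genes is annotated in the sources used here. Identifiers of this annotation number the genes along each scaffold. Of the 1580 raised DEGs with such an identifier, 16.1% had a raised DEG at the next number on either side, compared with 8.15% of all tested genes, and for lowered DEGs the shares were 14.3% and 6.30%. Neighbouring copies of 1 gene can share reads, which was not tested.

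Groups of genes were taken from the gene ontology (GO) annotation in the study's tables, as 39 lists that hold 412 genes, of which 352 were tested and 215 were DEGs, or 7.55% of all DEGs. The study assembled these tables from genes that changed in *OX* or in *anti-3* against these same WT libraries. A list's count and direction therefore describe it and are not independent evidence, whether its members were listed for *OX* or only for *anti-3*. The shares of all tested genes given above, 6.89% raised and 5.33% lowered, stand beside every count of *OX* against WT. For counts of *OX* against *anti-3* the shares of all tested genes were 2.01% higher and 1.72% lower, and for *OX*-H against *OX* 3.08% higher and 5.49% lower. In every list, both comparisons use the same *OX* libraries as the comparison with the WT and are not independent of it. The filter used *OX* and WT libraries only, so genes low in both were not tested, whatever their level in *anti-3* or *OX*-H. The directions of the list medians were the same with library medians aligned and with quantile normalization.

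**Figure D2:**
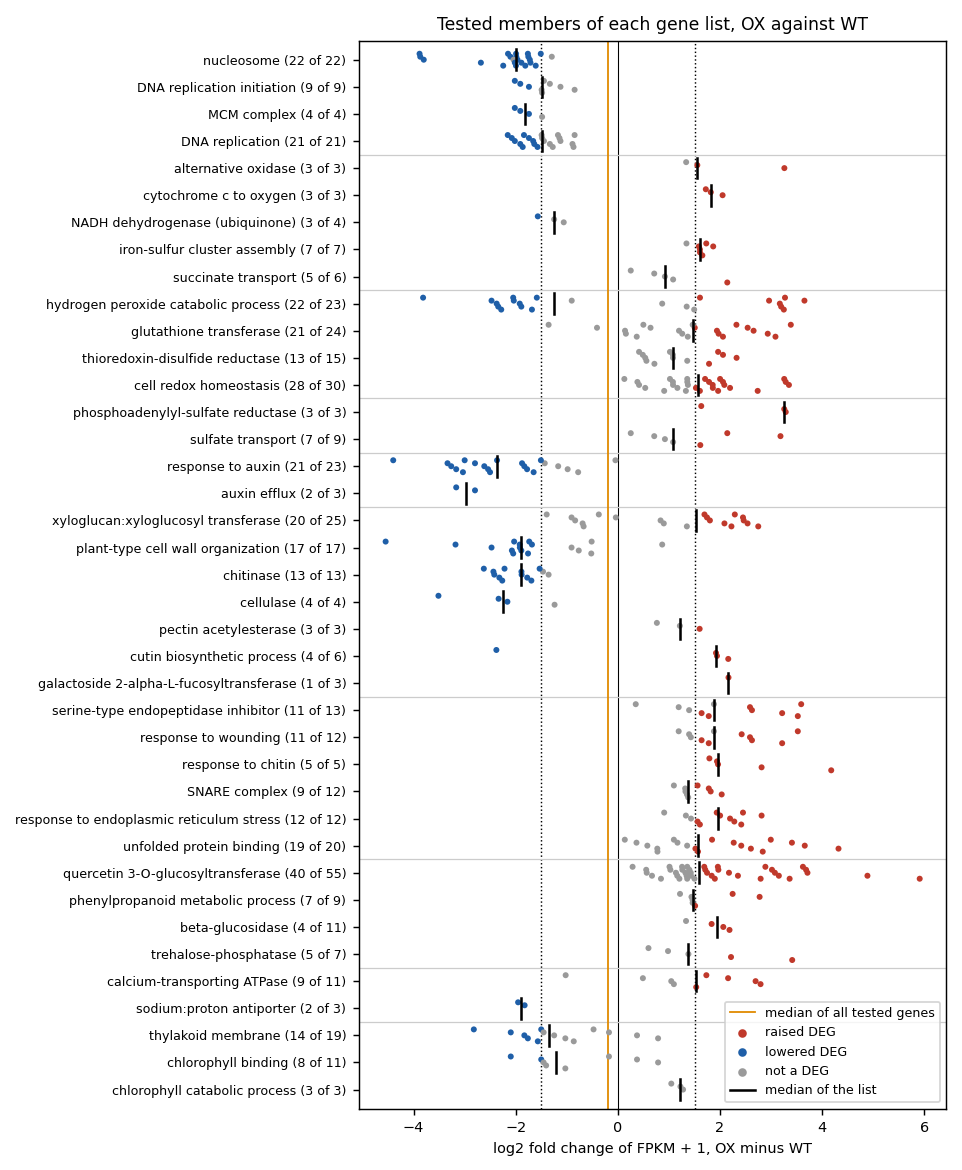
Log2 fold change of FPKM + 1 (*OX* minus WT, x axis) of every tested member of the 39 gene lists (y axis, with tested and listed numbers in brackets), with raised DEGs in red, lowered DEGs in blue and other members in gray. Black bars mark list medians, dotted lines the threshold of 1.5 in either direction and the orange line the median of all tested genes (-0.19).

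Among mitochondrial genes, those for the alternative oxidase, for electron transfer from cytochrome c to oxygen, and for the assembly of iron-sulfur clusters were higher in *OX* than in the WT. The alternative oxidase list had 3 members, of which 2 were raised. POPTR_0003s10290 was at 3.11, 5.42 and 4.77 FPKM in WT and at 49.3, 47.4 and 53.8 in *OX*, an 11.3-fold difference of means and a log2 fold change of 3.26 (SE 0.14, adjusted p = 3.2e-08, limma). The lowest *OX* library was above the highest WT library, as in every raised DEG. POPTR_0015s02150 rose from 11.8, 13.2 and 12.5 to 37.6, 36.4 and 42.0 FPKM, a log2 fold change of 1.55, which was 1.49 without *OX* replicate 3 and then no longer passed the threshold. The third member, POPTR_0011s00890, was at 7.49 to 8.97 FPKM in WT and 20.9 to 22.5 in *OX*, with a log2 fold change of 1.34 that did not reach 1.5. After H2O2, all 3 were lower in value than in *OX*. POPTR_0003s10290 had a mean of 1.73 FPKM in *OX*-H, a log2 difference (*OX*-H minus *OX*) of -4.23 (adjusted p = 5.1e-12, limma), and POPTR_0015s02150 a mean of 7.97 FPKM, a difference of -2.15. *OX* and *anti-3* did not pass the thresholds against each other for any of the 3, with log2 differences of -0.50 to 0.71.

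All 3 genes of the list for electron transfer from cytochrome c to oxygen, the last step of the respiratory chain, were raised. POPTR_0013s10300, the most abundant, was at 168, 164 and 144 FPKM in WT and 502, 522 and 548 in *OX*, with a log2 fold change of 1.72 (SE 0.07, adjusted p = 1.3e-08, limma). POPTR_0019s10470 rose from a mean of 51.7 ± 3.40 to 185 ± 7.02 FPKM and POPTR_1028s00200 from 16.3 ± 0.425 to 70.7 ± 7.27 FPKM (SD, n = 3 each). Their *OX* and WT libraries lay far apart relative to the spread within each group, which the DEG call itself selects for. None of the 3 passed the thresholds in *OX*-H against *OX* (median log2 difference -1.11) or in *OX* against *anti-3* (median 0.53).

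Iron-sulfur clusters are cofactors of respiratory complexes I to III and of aconitase, and 6 of the 7 genes annotated to their assembly were raised in *OX*, with a list median of 1.61 on the log2 scale. POPTR_0005s22080 had the highest level, with 49.97, 46.8 and 51.2 FPKM in WT and 144, 149 and 157 in *OX*. Its log2 fold change was 1.58 (SE 0.06), and 1.49 with quantile normalization, just short of the threshold. POPTR_0022s00770 had the largest rise, from 26.2, 29.9 and 30.3 to 103, 107 and 111 FPKM (log2 fold change 1.86). Both were lower in *OX*-H, with log2 differences of -1.71 and -2.60 and means of 44.9 and 16.9 FPKM. Of the 7 genes, 3 passed the thresholds as lower in *OX*-H than in *OX*, compared with 5.49% of all tested genes. Another of the 7, POPTR_0008s02270, was the 1 gene higher in *OX* than in *anti-3* (7.56 and 1.83 FPKM, log2 difference 1.60, adjusted p = 5.4e-08, limma); it was chosen after its values were seen.

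The 4 genes annotated to NADH dehydrogenase (ubiquinone), the activity of complex I of the respiratory chain, had few reads, and 1 of the 3 tested members was lowered. POPTR_0011s02220 was at 2.13, 2.88 and 4.58 FPKM in WT (82 reads) and 0.487, 0.403 and 0.243 in *OX* (9 reads), a log2 fold change of -1.57. Without WT replicate 3 it was -1.34, without *OX* replicate 3 it was -1.50 and with library medians aligned it was -1.43, all short of the threshold. POPTR_0018s08070 and POPTR_0008s17790 had log2 fold changes of -1.25 and -1.06. POPTR_0028s00410 did not pass the filter, and its WT libraries spread from 0.604 to 19.99 FPKM. Of these 4 genes, 3 are also annotated to the thylakoid membrane, so whether the list stands for mitochondrial complex I is uncertain. Of the 6 genes for succinate transport, listed for *anti-3* only, 5 were tested and 1 was raised, POPTR_0007s03520, from a mean of 1.01 ± 0.300 to 7.81 ± 0.109 FPKM (SD, n = 3 each). All 6 are also in the list of sulfate transport below, so the 2 lists are not separate observations. The most abundant, POPTR_0017s07510, had a log2 fold change of 0.92.

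**Figure D3:**
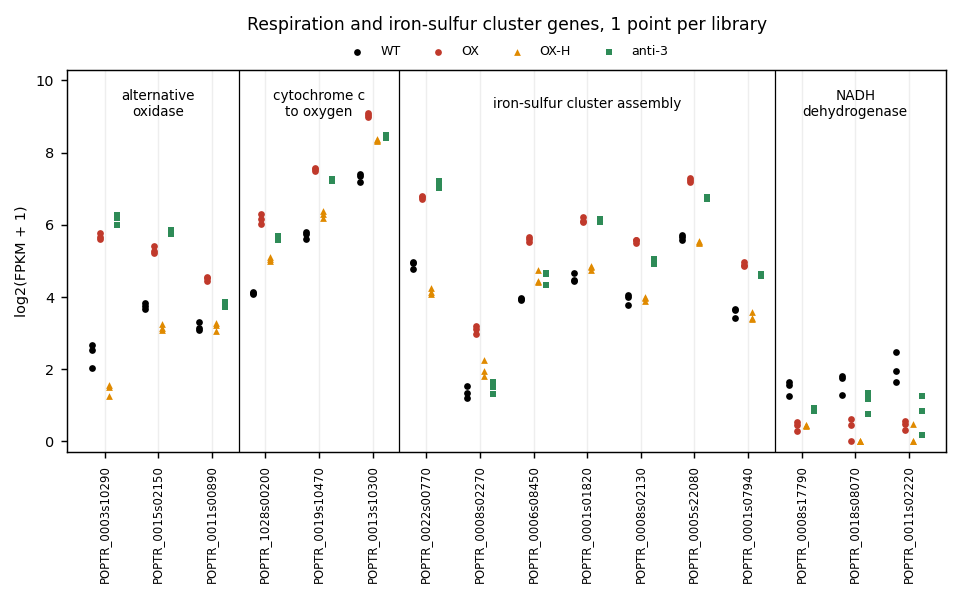
Log2(FPKM + 1) in each library (y axis, 1 point per library) of the tested genes of 4 lists (x axis), for WT, *OX*, *OX*-H and *anti-3*, 3 libraries each. In order, the lists are alternative oxidase, cytochrome c to oxygen, iron-sulfur cluster assembly and NADH dehydrogenase. Of the 4 genes listed for the last, 3 are also annotated to the thylakoid membrane. In the first 3 lists the *OX* points lie above the WT points for every gene, and in the last list below them, at low levels.

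Genes annotated to hydrogen peroxide catabolism, the term that plant peroxidases carry, changed in both directions. Of 22 tested members of 23, 11 were lowered and 7 raised, and the 11 lowered ones include the most abundant. POPTR_0013s08130 was at 1926, 1954 and 1898 FPKM in WT and at 567, 454 and 398 in *OX* (log2 fold change -2.04, SE 0.11, adjusted p = 1.1e-07, limma). POPTR_0005s21740, which is also annotated to cell wall organization, was at 679, 640 and 669 FPKM in WT and at 134, 122 and 101 in *OX*. In both genes the *OX* libraries differed among themselves more, in proportion, than the WT libraries did. POPTR_0007s05100 fell furthest, from 56.7, 50.3 and 50.2 to 2.25, 3.18 and 3.01 FPKM (log2 fold change -3.82). Summed over the 22 genes, the level was 4093 to 4156 FPKM in the WT libraries and 1024 to 1245 in the *OX* libraries.

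The 7 raised members were near 0 or low in the WT. Members near 0 there passed the filter only through the *OX* libraries. POPTR_0011s00280 was at 0.432, 0.358 and 0.244 FPKM in WT, from 22 reads, and at 12.5, 16.2 and 19.7 in *OX*, from 950 reads (log2 fold change 3.65, SE 0.15, adjusted p = 2e-08, limma). POPTR_1332s00200 rose from 4.95, 4.85 and 5.93 to 64.3, 55.7 and 57.5 FPKM, a log2 fold change of 3.27. POPTR_0010s14460 was at 0.0487 to 0.287 FPKM in WT and 10.0 to 10.7 in *OX*. POPTR_0008s02330 and POPTR_0008s02340, which are neighbours by number, had almost the same levels (2.67 and 2.76 FPKM in WT, 32.4 and 32.8 in *OX*), so reads shared between near-identical copies are possible and their values are uncertain. The last 3 genes, and POPTR_1332s00200, were chosen after their values were seen.

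Set directly against the antisense line, *OX* was higher for 8 of the 22 genes and lower for 1, compared with 2.01% higher, 1.72% lower and 3.73% in either direction of all tested genes. Of the 23 listed genes, 22 were listed for *OX* and 1 only for *anti-3*, so this count is not independent of the listing. POPTR_0011s00280 had a mean of 0.153 FPKM in *anti-3*, 3.87 below *OX* on the log2 scale (adjusted p = 4.2e-12, limma), and POPTR_1332s00200 a mean of 14.5 FPKM, 1.96 below *OX*. After H2O2, 6 of the 22 genes were higher in *OX*-H than in *OX* and 0 lower, compared with 3.08% higher, 5.49% lower and 8.56% in either direction of all tested genes. POPTR_0005s21740 had a mean of 602 FPKM in *OX*-H, 2.34 above *OX* on the log2 scale, and POPTR_0007s05100 a mean of 26.7 FPKM, 2.87 above *OX*. POPTR_0013s08130, at 706 FPKM, did not pass the threshold (log2 difference 0.59). These comparisons use the same *OX* libraries as the comparison with the WT and are not independent of it.

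**Figure D4:**
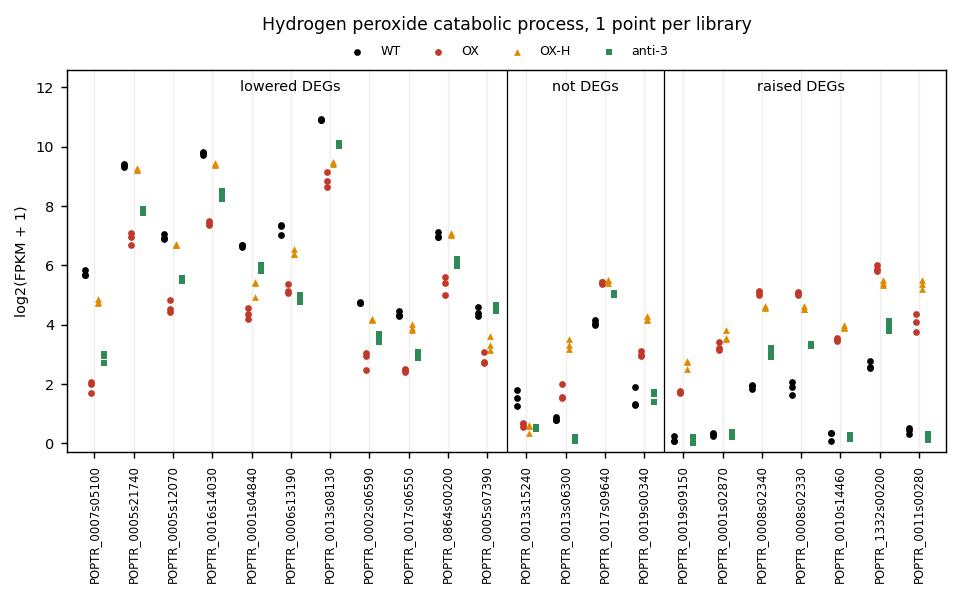
Log2(FPKM + 1) in each library (y axis, 1 point per library) of the 22 tested genes annotated to hydrogen peroxide catabolism (x axis, ordered by log2 fold change of *OX* against WT), for WT, *OX*, *OX*-H and *anti-3*, 3 libraries each. The 11 lowered DEGs are on the left, 4 genes that were not DEGs in the middle and the 7 raised DEGs on the right.

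In 3 other redox lists some genes were raised and the rest did not pass the thresholds. Thioredoxin-disulfide reductases keep thioredoxins, small proteins that reduce disulfide bonds, in their active form. Of the 13 tested members of that list, all listed for *anti-3* only, 4 were raised and 0 lowered in *OX*, with a median of 1.08. POPTR_0008s05530 had the largest rise, from 1.43, 2.34 and 1.68 to 12.1, 9.65 and 18.6 FPKM (log2 fold change 2.32, SE 0.21). POPTR_0005s25420 was the most abundant, at 590, 674 and 599 FPKM in WT and a mean of 2416 ± 80.0 in *OX* (SD, n = 3; log2 fold change 1.96, SE 0.07). It was at 859 FPKM in *OX*-H, a log2 difference of -1.49 that did not reach the threshold. The wider list of cell redox homeostasis, which shares 10 genes with it, had 15 raised and 0 lowered among 28 tested. POPTR_0007s01400 rose most in it, from 0.701, 0.762 and 1.01 to 14.9, 16.8 and 21.4 FPKM.

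Glutathione transferases conjugate glutathione to electrophilic compounds. Of 21 tested members of the 24 in the part of the list that was read, 10 were raised, 0 lowered and 11 were not DEGs, with 2 of these below 0. POPTR_0006s13580 was at 215, 260 and 239 FPKM in WT and at 1015, 1003 and 953 in *OX* (log2 fold change 2.06). POPTR_0001s42820 had the largest rise, from 9.69, 10.2 and 9.60 to 101, 106 and 131 FPKM (3.38). The lowest member, POPTR_0001s40510, was at 3.36, 4.13 and 2.79 FPKM in WT and at 0.705, 1.125 and 0.392 in *OX*, a log2 fold change of -1.36. It was not a DEG, but the list had 1 lowered gene with pseudocounts of 0.1 and 0.5, with voom, with a fold change above 1.5 and without *OX* replicate 2. Against *anti-3*, *OX* was lower for 7 of the 21 and higher for 0, compared with 1.72% and 2.01% of all tested genes. Of the 24 genes, 8 were listed for *OX* and 16 only for *anti-3*, so this count is not independent of the listing. After H2O2, 16 of the 21 were lower than in *OX*, compared with 5.49% of all tested genes, and POPTR_0001s42820 was then at a mean of 1.82 FPKM.

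Sulfur assimilation supplies the cysteine for glutathione. The tested genes of its lists here all had log2 fold changes above 0 in *OX*, down to 0.25 for sulfate transport, and part of them were raised. All 3 genes annotated to phosphoadenylyl-sulfate reductase were raised. POPTR_0004s01220 was at 30.6, 37.8 and 37.3 FPKM in WT and at 324, 334 and 375 in *OX*, a 9.77-fold difference of means (log2 fold change 3.26, SE 0.09, adjusted p = 1.3e-09, limma). POPTR_0004s01190 showed a similar change, from 20.6, 19.0 and 19.4 to 192, 191 and 220 FPKM, and POPTR_0014s15240 rose from 2.80 ± 0.215 to 10.8 ± 0.598 FPKM (SD, n = 3 each). The first 2 of these were at 21.3 and 12.9 FPKM in *OX*-H, with log2 differences from *OX* of -3.95 and -3.86. Of the 7 tested sulfate transport genes, listed for *anti-3* only, 3 were raised, with POPTR_0002s09310 rising from 2.39, 3.54 and 2.72 to 33.5, 31.1 and 37.6 FPKM. Of the 9 genes in this list, 6 are the succinate transport genes above.

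Chromatin and replication genes were lower in *OX*. Nucleosome genes encode histones, which package DNA, and 20 of 22 were lowered, with a median log2 fold change of -1.99 and none above 0. Their summed level was 2895 to 3095 FPKM in the WT libraries and 652 to 658 in the *OX* libraries. POPTR_0006s08230, the most abundant, was at 754, 760 and 759 FPKM in WT and at 193, 193 and 183 in *OX* (log2 fold change -1.99, SE 0.05, adjusted p = 6.9e-10, limma). POPTR_0005s11860 fell furthest, from 253, 266 and 257 to 17.8, 15.1 and 16.9 FPKM (log2 fold change -3.88, SE 0.06). In both genes the 2 groups lay far apart, which the DEG call itself selects for. Of the 2 members that were not DEGs, POPTR_0007s14000 had a log2 fold change of -1.30, and POPTR_0006s18360 had 145 FPKM in WT replicate 2 but 27.2 and 26.8 in the other WT libraries; both were chosen after their values were seen.

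The MCM complex is the helicase that opens DNA at replication origins. Of its 4 genes 3 were lowered. POPTR_0001s12380 was at 15.6, 16.4 and 15.6 FPKM in WT and at 3.11, 2.94 and 3.43 in *OX* (log2 fold change -2.02, SE 0.08). POPTR_0004s13660 and POPTR_0009s12440 fell by 1.74 and 1.91 on the log2 scale, and POPTR_0006s20300 was at -1.48, just short of the threshold. The list of DNA replication, which includes all 4, had 10 lowered and 0 raised among 21 (17 lowered with a pseudocount of 0.1 and 18 with voom), and POPTR_0005s24410 fell furthest, from 13.8, 14.1 and 12.8 to 1.93, 2.53 and 2.34 FPKM. POPTR_0015s06800, its most abundant member, fell from 19.2 ± 1.92 to 5.78 ± 0.638 FPKM (SD, n = 3 each), by 1.58 on the log2 scale, and by 1.43 with library medians aligned and 1.48 with quantile normalization, both short of the threshold. No gene of the 21 passed the thresholds between *OX* and *anti-3*, with a median difference of -0.18. In *OX*-H, 1 of the 21 was higher than in *OX*, POPTR_0001s12380 at a mean of 13.9 FPKM, and the median log2 difference was 0.99.

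Genes of auxin response were lower in *OX*. Of 21 tested members of the list, 16 were lowered and 0 raised, with a median of -2.37. POPTR_0006s06550 was at 28.8, 25.0 and 30.3 FPKM in WT and at 0.422, 0.466 and 0.241 in *OX*, where it rested on 18 reads (log2 fold change -4.40, SE 0.11, adjusted p = 8.3e-10, limma). POPTR_0013s03860, the most abundant, fell from 283, 283 and 273 to 50.7, 50.6 and 44.2 FPKM. Both genes were higher after H2O2 than in *OX*, POPTR_0013s03860 with a mean of 381 FPKM in *OX*-H and POPTR_0006s06550 with 9.33. In all, 11 of the 21 were higher in *OX*-H than in *OX* and 0 lower, compared with 3.08% and 5.49% of all tested genes. The list includes the 3 auxin efflux genes, which export auxin from cells. POPTR_0010s12320 fell from 48.6, 44.1 and 46.3 to 4.34, 3.76 and 4.75 FPKM (log2 fold change -3.17) and POPTR_0006s03540 from 20.9 ± 2.32 to 2.15 ± 0.317 FPKM (SD, n = 3 each). POPTR_0016s03450 was below the filter, with 75 reads in WT and 6 in *OX*.

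Cytokinin riboside 5′-monophosphate phosphoribohydrolases release active cytokinin bases from their nucleotides, and 3 genes of this function are named in the study's text. POPTR_0004s22210 was at 68.1, 64.6 and 64.9 FPKM in WT and at 2.40, 1.22 and 1.92 in *OX*, a 35.6-fold difference of means (log2 fold change -4.57, SE 0.14, adjusted p = 2.3e-09, limma). Its level in *OX* was also below that of *anti-3*, which was 7.85 FPKM (log2 difference -1.64). It was at 2.54 FPKM in *OX*-H. POPTR_0009s01600 fell from 3.64, 3.47 and 4.03 to 0.332, 0.505 and 1.04 FPKM by 1.56 on the log2 scale; this fall was 1.43 without *OX* replicate 1, 1.42 with library medians aligned and 1.47 with quantile normalization, all short of the threshold. POPTR_0016s09180 was below the filter, with 68 reads in WT and 3 in *OX*.

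Of the other genes that the study's text names, 3 UDP-glycosyltransferase genes named for *anti-3* were not DEGs in *OX*. POPTR_0006s02390 (4.99 to 5.84 FPKM in *OX*, 5.34 to 6.49 in WT) and POPTR_0545s00210 had log2 fold changes of -0.10 and -0.19, and POPTR_0009s15190 had -1.26. The libraries of POPTR_0006s02390 overlapped, and the gene was 1.66 higher in *OX* than in *anti-3*. POPTR_0001s05400, the fourth, fell from 56.99, 54.5 and 54.4 to 5.89, 5.62 and 5.31 FPKM (log2 fold change -3.09). Among the UDP-glycosyltransferase and phosphatase genes named for *OX*, POPTR_0003s14230 fell by 1.69, POPTR_0013s14030 by 1.76 and POPTR_0014s08130 by 2.38 on the log2 scale. The phosphatidylinositol-4-phosphate 5-kinase gene POPTR_0005s15850 fell by 3.43, and the inorganic pyrophosphatase gene POPTR_0006s08250 rose by 1.62, from 38.6 ± 3.44 to 121 ± 9.36 FPKM (SD, n = 3 each). The second inorganic pyrophosphatase gene POPTR_0005s01840, the alkaline α-galactosidase gene POPTR_0016s05500 and the phosphatase family gene POPTR_0007s09470 had log2 fold changes of -1.36, -1.43 and -0.46 and were not DEGs.

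Cell wall genes were in several lists. Xyloglucan:xyloglucosyl transferases cut and rejoin the xyloglucan chains between cellulose fibrils, and of 20 tested members 10 were raised and 0 lowered, while 13 had log2 fold changes above 0 and 7 below. Lowered members were 1 without *OX* replicate 1 and 4 with a fold change above 1.5. POPTR_0005s00900 rose most, from 11.1, 10.99 and 8.41 to 65.9, 65.6 and 91.7 FPKM (log2 fold change 2.75, SE 0.14). The lowest member, POPTR_0006s07060, was at 52.6, 45.5 and 47.6 FPKM in WT and at 24.6, 18.6 and 12.2 in *OX*, a log2 fold change of -1.40 that did not reach the threshold. The most abundant member, POPTR_0013s14860, was not a DEG, with 286 ± 10.8 FPKM in WT and 160 ± 11.6 in *OX* (SD, n = 3 each), and it was at 923 FPKM in *OX*-H.

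The genes of plant-type cell wall organization, of which 6 are in the hydrogen peroxide list, were mostly lowered, 12 of 17, with 0 raised and a median of -1.89. POPTR_0010s21000 was at 163, 141 and 153 FPKM in WT and at 6.13, 6.38 and 4.31 in *OX*, a 27.2-fold difference of means (log2 fold change -4.55, SE 0.12, adjusted p = 1.1e-09, limma). Its log2 difference from *anti-3* was -2.48. Of the 17 genes, 8 were higher in *OX*-H than in *OX*, compared with 3.08% of all tested genes. Cellulases, which cut glucan chains, were lowered in 3 of 4 genes. POPTR_0003s13940 fell from 76.2, 68.0 and 72.6 to 5.72, 4.75 and 5.80 FPKM, POPTR_0003s14740 from 27.8 ± 2.95 to 5.42 ± 0.760 and POPTR_0006s04670 from 11.8 ± 0.428 to 1.55 ± 0.430 (SD, n = 3 each). The first 2 were also lower in *OX* than in *anti-3*, with log2 differences of -1.75 and -1.84, as were 1.72% of all tested genes. All 4 cellulase genes were listed for *OX*, so this count is not independent of the listing. POPTR_0014s15590 had a log2 fold change of -1.24, from 189 reads in WT and 7 in *OX*.

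Chitinases, which cut chitin and are secreted in development and defence, were lowered in 11 of 13 genes, with a median of -1.89 and a range of -2.63 to -1.36. POPTR_0004s18870 was the most abundant member, at 2172, 2017 and 2260 FPKM in WT and at 452, 423 and 335 in *OX* (log2 fold change -2.42, SE 0.10). POPTR_0009s14380 fell most, from 436, 408 and 442 to 87.6, 74.3 and 49.4 FPKM. *OX* was lower than *anti-3* in 4 of the 13 genes and higher in 0, compared with 1.72% and 2.01% of all tested genes. All 13 were listed for *OX*, so this count is not independent of the listing. POPTR_0012s01160, chosen after its values were seen, had means of 9.53 FPKM in *OX*, 51.5 in WT and 58.1 in *anti-3* (log2 difference of *OX* and *anti-3* -2.61).

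Cutin is the polyester of the plant cuticle. Of 4 tested genes of its synthesis, 3 were raised from very low WT levels and 1 was lowered. POPTR_0009s11300 was at 0.448, 0.475 and 0.725 FPKM in WT and at 4.69, 6.26 and 6.96 in *OX* (log2 fold change 2.16, SE 0.15). The lowered gene was POPTR_0014s08130, one of the phosphatase genes above, at 50.2, 45.0 and 50.6 FPKM in WT and 8.21, 10.1 and 7.39 in *OX*. All 4 were higher in *OX* than in *anti-3*, where POPTR_0009s11300 was at 0.184 and POPTR_0014s08130 at 2.35 FPKM. Of all tested genes 2.01% were higher. Of the 6 listed genes of cutin synthesis, 5 were listed for *OX*, so this count is not independent of the listing. Among 3 pectin acetylesterase genes, POPTR_0010s00700 rose from 0.309 ± 0.0443 to 3.00 ± 0.685 FPKM (SD, n = 3 each) by 1.60 on the log2 scale, which became 1.47 without *OX* replicate 3, short of the threshold. The other 2, POPTR_0004s24220 and POPTR_0012s13090, had log2 fold changes of 1.21 and 0.76. Of 3 fucosyltransferase genes 1 was tested and raised, POPTR_0003s19030, from 2.08, 1.80 and 1.35 to 10.9, 11.8 and 10.9 FPKM. The other 2, POPTR_0001s07100 and POPTR_0003s19060, had 2 and 1 reads in WT and 48 and 16 in *OX*.

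Genes of protein folding and of the endoplasmic reticulum stress response had log2 fold changes above 0 in every tested member, and part of them were raised. Unfolded protein binding is the function of chaperones, and of 19 tested genes, all listed for *anti-3* only, 11 were raised and 0 lowered in *OX*. POPTR_0004s07190 was at 17.3, 18.5 and 15.8 FPKM in WT and at 332, 347 and 411 in *OX*, a 21.1-fold difference of means (log2 fold change 4.32, SE 0.09, adjusted p = 2.4e-10, limma). POPTR_0017s01160, the most abundant, rose from 103, 109 and 103 to 502, 463 and 566 FPKM. No gene of this list passed the thresholds between *OX* and *anti-3*. In *OX*-H, 16 of the 19 were lower than in *OX*, compared with 5.49% of all tested genes. POPTR_0004s07190 was then at a mean of 7.04 FPKM.

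Of the 12 genes of the response to endoplasmic reticulum stress, 9 were raised and 0 lowered, with a median of 1.97. POPTR_0001s13750 was at 851, 858 and 782 FPKM in WT and had a mean of 3175 ± 149 in *OX* (SD, n = 3). POPTR_0005s27930, also annotated to the response to chitin, rose from 119, 119 and 123 to 841, 825 and 887 FPKM (log2 fold change 2.81, SE 0.05). All 5 genes of the response to chitin were raised. POPTR_0010s21650 rose most, from 22.6, 30.4 and 35.5 to 514, 542 and 571 FPKM (4.18), and POPTR_0002s12010, POPTR_0014s01760 and POPTR_0013s14960 rose by 1.79, 1.94 and 1.96 on the log2 scale. SNARE proteins fuse vesicles with their target membranes, and 4 of 9 tested genes were raised, among them POPTR_0006s21670, from 27.4 ± 1.02 to 115 ± 4.66 FPKM (SD, n = 3 each), and POPTR_0016s13760, at 1.56 on the log2 scale and 1.46 with quantile normalization, short of the threshold.

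Inhibitors of serine proteases and genes of the response to wounding, which share 10 members, were each raised in 7 of 11 tested genes, with 0 lowered. POPTR_0010s08640 was at 2.89, 0.568 and 1.39 FPKM in WT, from 32 reads, and at 33.1, 28.3 and 24.4 in *OX* (log2 fold change 3.59, SE 0.27). POPTR_0016s07980 had 2 reads over the WT libraries and 175 in *OX*, at 14.8, 15.4 and 7.18 FPKM. POPTR_0770s00220 rose from 11.1, 19.8 and 21.1 to 59.3, 61.5 and 58.1 FPKM. POPTR_0014s03530, the most abundant inhibitor gene, was at 47.9 ± 0.187 FPKM in WT and 61.5 ± 6.56 in *OX* (SD, n = 3 each) and was not a DEG.

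Genes of specialised metabolism included the largest rise in the 39 lists. Quercetin 3-O-glucosyltransferases attach glucose to flavonols. Of 40 tested members of the 55 in the part of the list that was read, 20 were raised and 0 lowered, with all 40 log2 fold changes above 0. POPTR_0006s05450 was at 0.179, 0.195 and 0.273 FPKM in WT, from 22 reads, and at 73.5, 71.2 and 71.0 in *OX*, from 6828 reads (log2 fold change 5.91, SE 0.08, adjusted p = 4.6e-11, limma). The *OX* libraries agreed closely. POPTR_0001s31040 rose from 21.7, 24.6 and 28.1 to 305, 298 and 344 FPKM and was at 11.9 FPKM in *OX*-H. Of the 40 genes, 17 were lower in *OX*-H than in *OX*, compared with 5.49% of all tested genes.

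The phenylpropanoid list had 3 raised genes among 7 tested, and the count was 6 with library medians aligned, 6 and 7 with pseudocounts of 0.5 and 0.1, 7 with voom and 1 with an FPKM of at least 5. POPTR_0006s09520 was at 0.0851, 0 and 0.0288 FPKM in WT, from 4 reads, and at 4.95, 6.88 and 6.61 in *OX*, from 611 reads. It was 2.44 higher on the log2 scale than in *anti-3*, and 3 of the 7 genes were higher in *OX* than in *anti-3* with 0 lower. All 9 genes of the list were listed for *OX*, and POPTR_0006s09520 passed the filter only through the *OX* libraries, so this direction is in part built in. POPTR_0005s11950, the most abundant of the 7, had a log2 fold change of 1.46 and was not a DEG. Of the 4 tested beta-glucosidase genes 3 were raised, among them POPTR_0001s23070 (0.815 ± 0.0288 to 7.24 ± 0.0140 FPKM, SD, n = 3 each) and POPTR_0001s23050 (1.41 ± 0.334 to 7.72 ± 2.35). Trehalose-phosphatases make the sugar trehalose from its phosphate, and 2 of 5 tested genes were raised. POPTR_0015s14810 rose from 1.25, 1.01 and 1.37 to 22.2, 21.7 and 23.6 FPKM, while POPTR_0003s11190 had a log2 fold change of 0.98.

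Calcium-transporting ATPases pump calcium out of the cytosol, and 5 of 9 tested genes, all listed for *anti-3* only, were raised. POPTR_0010s09130 rose from 1.16, 0.972 and 1.16 to 12.8, 12.3 and 15.7 FPKM (log2 fold change 2.79) and was at 0.364 FPKM in *OX*-H. Of the 9, 7 were lower in *OX*-H than in *OX*, compared with 5.49% of all tested genes. POPTR_0003s12570, the most abundant, had a log2 fold change of 1.09, and the lowest member, POPTR_0016s01090, one of -1.02. Both tested sodium:proton antiporter genes were lowered, POPTR_0010s11110 from 13.1, 11.99 and 13.3 to 2.55, 2.27 and 2.88 FPKM and POPTR_0010s11130 from 4.38 ± 0.692 to 0.510 ± 0.102 (SD, n = 3 each). POPTR_0010s03270 was below the filter.

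Genes of the thylakoid membrane, which carries the light reactions of photosynthesis, were lowered in 6 of 14 tested genes, and of 8 genes that bind chlorophyll 2 were lowered. Without WT replicate 3 these counts were 2 and 1, without *OX* replicate 2 the second was 4 and without *OX* replicate 3 it was 1. The thylakoid genes summed to 111 to 117 FPKM in the WT libraries and 30.9 to 45.7 in the *OX* libraries. POPTR_0016s11450 fell most, from 6.99, 8.95 and 9.88 to 0.203, 0.448 and 0.405 FPKM, and POPTR_0004s19950 fell from 5.81 ± 2.40 to 0.537 ± 0.248 (SD, n = 3 each) with 80 reads in WT and 7 in *OX*. POPTR_0016s12260, the most abundant in both lists, was at 59.9, 53.3 and 55.0 FPKM in WT and 24.6, 21.96 and 14.3 in *OX*, a log2 fold change of -1.46 that was not past the threshold, and it was at 89.8 FPKM in *OX*-H. None of the 3 genes of chlorophyll breakdown was a DEG, with log2 fold changes of 1.04 for POPTR_0010s09240, 1.22 for POPTR_0018s08790 and 1.27 for POPTR_0007s11070. The most abundant, POPTR_0007s11070, was at 10.4 ± 0.897 FPKM in *OX* and 1.51 higher there than in *anti-3*.

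The peroxide, cutin and phenylpropanoid lists hold genes with mean levels below 1 FPKM in WT and in *anti-3* and several FPKM in *OX*, as in POPTR_0011s00280, POPTR_0009s11300 and POPTR_0006s09520. These named genes were below 1 FPKM in every WT library, so they passed the filter only through the *OX* libraries. Of 1015 tested genes with a mean below 1 FPKM in WT, 368 were raised and 0 lowered, so this pattern is in part built in. The *anti-3* and *OX*-H libraries held 17041314 to 20696382 and 15618191 to 17889817 reads.

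**Figure D5:**
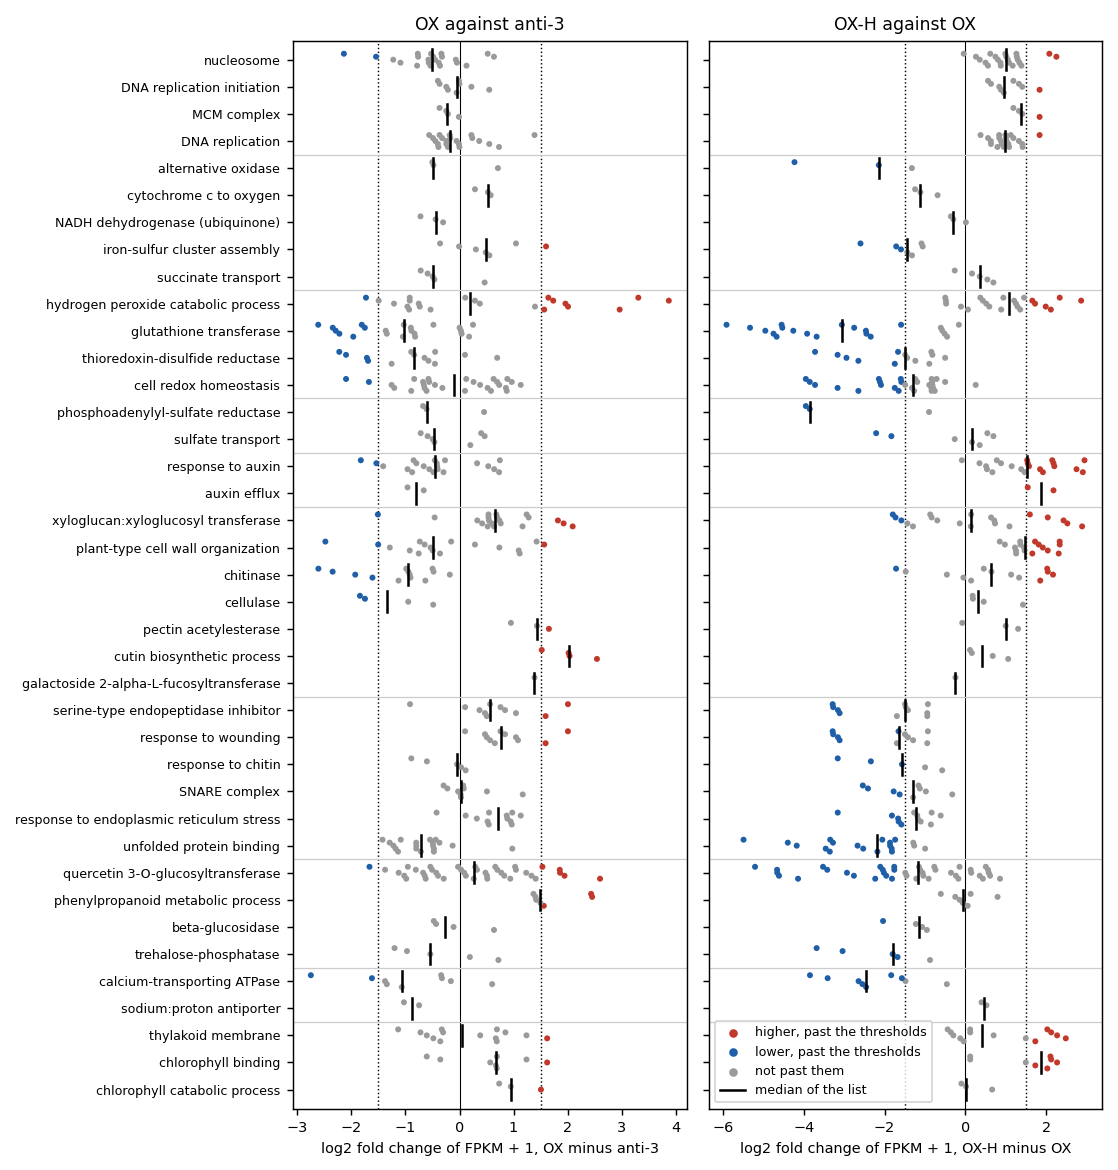
Log2 fold change of FPKM + 1 of every tested member of the 39 gene lists (y axis) for *OX* minus *anti-3* (left, x axis) and *OX*-H minus *OX* (right, x axis), with members past the thresholds in red where higher and blue where lower, list medians as black bars and the threshold of 1.5 as dotted lines. Most members lie within the thresholds against *anti-3*, while in *OX*-H most glutathione transferase and unfolded protein binding genes (16 of 21 and 16 of 19) lie below -1.5.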

How the data were processed

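RNA-seq of 15 suspension cell libraries (3 each of 5 groups) was used as deposited. The authors mapped reads to the *P. trichocarpa* genome and deposited a table of FPKM, gene by library. The paper names SOAPaligner/SOAP2 (2 mismatches allowed) and RPKM, whereas the submitters' processing notes list Bowtie2 2.2.3, TopHat2 2.0.12 and HTSeq 0.6.1. The sources used here do not give the genome release, annotation or strand use. RNA was extracted with TRIzol per the paper but with a column kit per the labels. The authors' tables of fold changes and p-values from DEGseq hold their own comparisons and were not used.

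Groups came from the sample labels. Whole reads were worked back from the FPKM steps with Python 3.11.15 (numpy 2.4.6, pandas 2.3.3). Each of 445124 nonzero values gave a whole read number (tolerance 0.0001 reads). Of the features, 41377 have POPTR identifiers, and 0 matched the reference gene table, so gene functions are those the paper and its GO tables state and no sequences are shown. A pseudocount of 1 was added, and *OX* was tested against WT with limma 3.58.1 (R 4.3.3, limma-trend) on the 6 libraries alone. P-values were adjusted over 23281 genes by the Benjamini-Hochberg method, with the thresholds of the paper's Methods (adjusted p below 0.001, absolute log2 ratio above 1.5). The paper's Results state a fold change of 1.5 instead, which was run as an alternative. *OX* against *anti-3* and *OX*-H against *OX* were read from a fit of all 15 libraries over the same genes. The fit was checked on simulated data. No set test was made.

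Named genes are the 2 largest rises and falls, in each list the DEG with the largest rise, the DEG with the largest fall and the most abundant member, every member of lists of 5 or fewer, and genes the paper's text names. The lowest members of the glutathione transferase, xyloglucan transferase and calcium ATPase lists are not DEGs and were added after their values were seen. The lists and members were chosen with earlier results of these data known. The supplementary tables of the paper that were read hold only part of the glutathione transferase and quercetin 3-O-glucosyltransferase lists. Alternatives were pseudocounts of 0.1 and 0.5, no filter, an FPKM of at least 5, aligned library medians, quantile normalization, all 15 libraries, no trend, a fold change above 1.5, an adjusted p threshold of 0.05, a block for the replicate number, voom on whole reads, and each replicate left out in turn.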

Additional observations from a re-analysis of the deposited data

How the results depend on the processing

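With 2847 DEGs on the values as deposited, a fold change above 1.5 gave 11205 (4650 raised, 6555 lowered), voom on whole reads 4405 (2202 lowered), and a pseudocount of 0.1 gave 2061 lowered DEGs. Leaving out 1 replicate gave 2827 to 2927 DEGs (1593 to 1632 raised, 1233 to 1295 lowered). *OX* against *anti-3* gave 869 genes (469 higher, 400 lower), and 1522 (836 and 686) with a pseudocount of 0.1; *OX*-H against *OX* gave 716 genes higher, and 1179 with it. Of 102 named genes under these settings, 1764 of 1820 values kept their call and 0 reversed. For the counts of raised and lowered genes in the 39 lists, 65 of 1404 values moved, in 23 of 78 counts. A value was taken as moved if it changed by more than 1.5 times, or to or from 0. Calls of named genes were lost in 12, all of genes near the fold change threshold, and gained in 44.

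Same-numbered *OX* and WT libraries did not deviate together (correlations of -0.03 to 0.04). No pairing by number was seen, though such values cannot exclude that same-numbered samples were handled together. With the replicate number as a block, 2847 genes were DEGs (1605 raised, 1242 lowered). Depth limits the low genes: POPTR_0016s09180 rests on 3 reads in *OX*.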
